A study of Homo sapiens with 16 samples.

Results

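The genes described here are 10 carriers that move amino acids across the plasma membrane: SLC7A5, SLC3A2, SLC7A11, SLC43A1, SLC7A1, SLC38A1, SLC38A2, SLC1A4, SLC1A5 and SLC6A9. They were taken by their symbols from the probe annotation of the arrays, which holds 34423 gene symbols on 50599 probes. All 10 were found, on 14 probes. The genes were chosen by their measured levels across the 8 groups, so every comparison of these groups below is a description of the chosen genes and carries no test. Expression was measured in RPMI-8226 and MM.1S, established human multiple myeloma cell lines, after 6 days with the solvent DMSO, with 1 µM GSK126 (an inhibitor of the histone H3 lysine 27 methyltransferase EZH2), with 1 µM UNC0638 (an inhibitor of the histone H3 lysine 9 methyltransferase G9a), or with both inhibitors at 1 µM each. Each of the 8 groups held 2 samples labelled as replicates, and each sample was hybridised to 1 single-colour array. The study calls them biological replicates, while the labels give only the number, so the errors and thresholds measure no more than the spread between these samples. All cells of all groups grew in the same serum-containing medium. The comparisons ask how the inhibitors, alone and together, changed transporter expression in each line.

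Amino acid transporters fall into exchangers, which import one amino acid in return for exporting another, uniporters, which carry their substrate down its gradient, and symporters, which use the sodium gradient. SLC7A5 (LAT1) and SLC7A11 (xCT) are light chains that need the heavy chain SLC3A2 (4F2hc, CD98) to reach the cell surface. When amino acids run short or the endoplasmic reticulum is stressed, the transcription factor ATF4 raises the transcription of many of these carriers and of the enzymes that make amino acids, and plasma cells, which secrete large amounts of antibody protein, are known for their high demand for amino acids.

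On the arrays, expression is given as a level, the log2 of the processed intensity minus the 75th percentile of that array, so that 0 is the level of a probe at the 75th percentile. The level of one probe says nothing about that of another, and only levels of the same probe are set side by side. A probe was called changed when its limma p-value, adjusted by Benjamini-Hochberg over all probes tested, was under 0.05. All 10 genes passed the filter on dim probes in both lines, and the probe with the highest mean level stands for a gene with several probes. Across the 16 arrays, 46.5 to 52.8% of spots were well above background. The 7 plasma cell markers (SDC1, CD38, TNFRSF17, XBP1, MZB1, IRF4 and PRDM1) were well above background on both arrays of every group. RNA came from whole cultures, in which fewer cells of a type and less RNA per cell cannot be told apart.

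The promoters are shown because several of these carriers are known ATF4 targets, and ATF4 with its partners binds the C/EBP-ATF response element. RefSeq promoter windows (GRCh38.p14, 250 bases before to 50 after a transcription start) were at hand for 9 of the 10 genes, in 16 windows, and not for SLC7A11. The element was searched as TGATGNAA on both strands. It was found in 5 of the 16 windows (31.2%), of SLC7A1, SLC38A1, SLC1A4, SLC1A5 and SLC3A2, and in 3.62% of all 35116 windows. Capitals mark the match, each stretch is given 5′ to 3′ on the strand of its gene, and CHAC1 and ASNS are shown beside the carriers as genes of the amino acid response that hold the element, while the windows of PSAT1, PHGDH, ASS1 and CBS, searched alike, held no match to it.
SLC7A1, minus strand, chr13:29595664-29595691: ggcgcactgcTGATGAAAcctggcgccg
SLC38A1, minus strand, chr12:46266503-46266550: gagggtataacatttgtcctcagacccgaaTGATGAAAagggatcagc
SLC1A4, plus strand, chr2:64989362-64989409: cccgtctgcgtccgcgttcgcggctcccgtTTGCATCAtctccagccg
SLC1A5, minus strand, chr19:46784874-46784941: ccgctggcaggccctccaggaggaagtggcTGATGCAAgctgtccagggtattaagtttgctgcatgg
SLC3A2, plus strand, chr11:62881726-62881748: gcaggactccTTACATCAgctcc
CHAC1, plus strand, chr15:40953232-40953299: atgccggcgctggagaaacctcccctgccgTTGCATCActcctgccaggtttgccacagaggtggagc
ASNS, minus strand, chr7:97872439-97872506: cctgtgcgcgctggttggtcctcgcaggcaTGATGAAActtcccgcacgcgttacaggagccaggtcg

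Each window has its own start, and SLC1A5, SLC3A2, SLC1A4, SLC38A1 and SLC43A1 have several. The match of SLC1A5 begins 97 bases before the start of its window, that of SLC1A4 7 bases and that of SLC38A1 4 bases. In SLC7A1 and SLC3A2 the match lies after the start. The E-box CACGTG, bound by MYC and other helix-loop-helix factors, was found in the windows of SLC7A5, SLC43A1 and SLC1A5 (3 of 16 windows, 18.8%, and 7.26% of all windows). The core TGACNNNGC of the antioxidant response element, bound by NRF2, was found in those of SLC7A5, SLC3A2, SLC7A1 and SLC1A5 (4 of 16 windows, and 13.3% of all windows). A match describes letters and is no evidence of binding. The single window of SLC6A9, the gene with the largest difference below, and that of SLC38A2 held none of the 3 motifs. The 150 bases before the start of SLC6A9 are printed because none of them lies in a match, and no capitals are used.
SLC6A9, minus strand, chr1:44031463-44031612: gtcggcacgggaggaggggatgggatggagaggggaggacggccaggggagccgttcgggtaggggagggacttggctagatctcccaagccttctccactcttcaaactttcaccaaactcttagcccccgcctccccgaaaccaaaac
For SLC7A5 and SLC43A1, the E-boxes stood in the following stretches, 130 and 112 bases before the start, and are shown to set them beside carriers with the C/EBP-ATF element.
SLC7A5, minus strand, chr16:87869602-87869667: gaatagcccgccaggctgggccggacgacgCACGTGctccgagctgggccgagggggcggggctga
SLC43A1, minus strand, chr11:57515779-57515844: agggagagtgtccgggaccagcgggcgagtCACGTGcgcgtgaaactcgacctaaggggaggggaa

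In MM.1S cells given both inhibitors, 9 of the 10 carriers stood below DMSO and 1, SLC38A2, above it. Of the 10 genes, 8 passed the threshold as lower, where 31.5% of all 25102 probes tested did so, and 22.2% passed as higher. Both combination arrays lay below both DMSO arrays for 9 genes, as they did for 46.0% of probes. With the replicate number as a block, SLC43A1 also passed as lower and SLC38A2 as higher. The median log2 fold change of the 10 genes was -1.65, and that of all probes tested was -0.12.

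**Figure D1:**
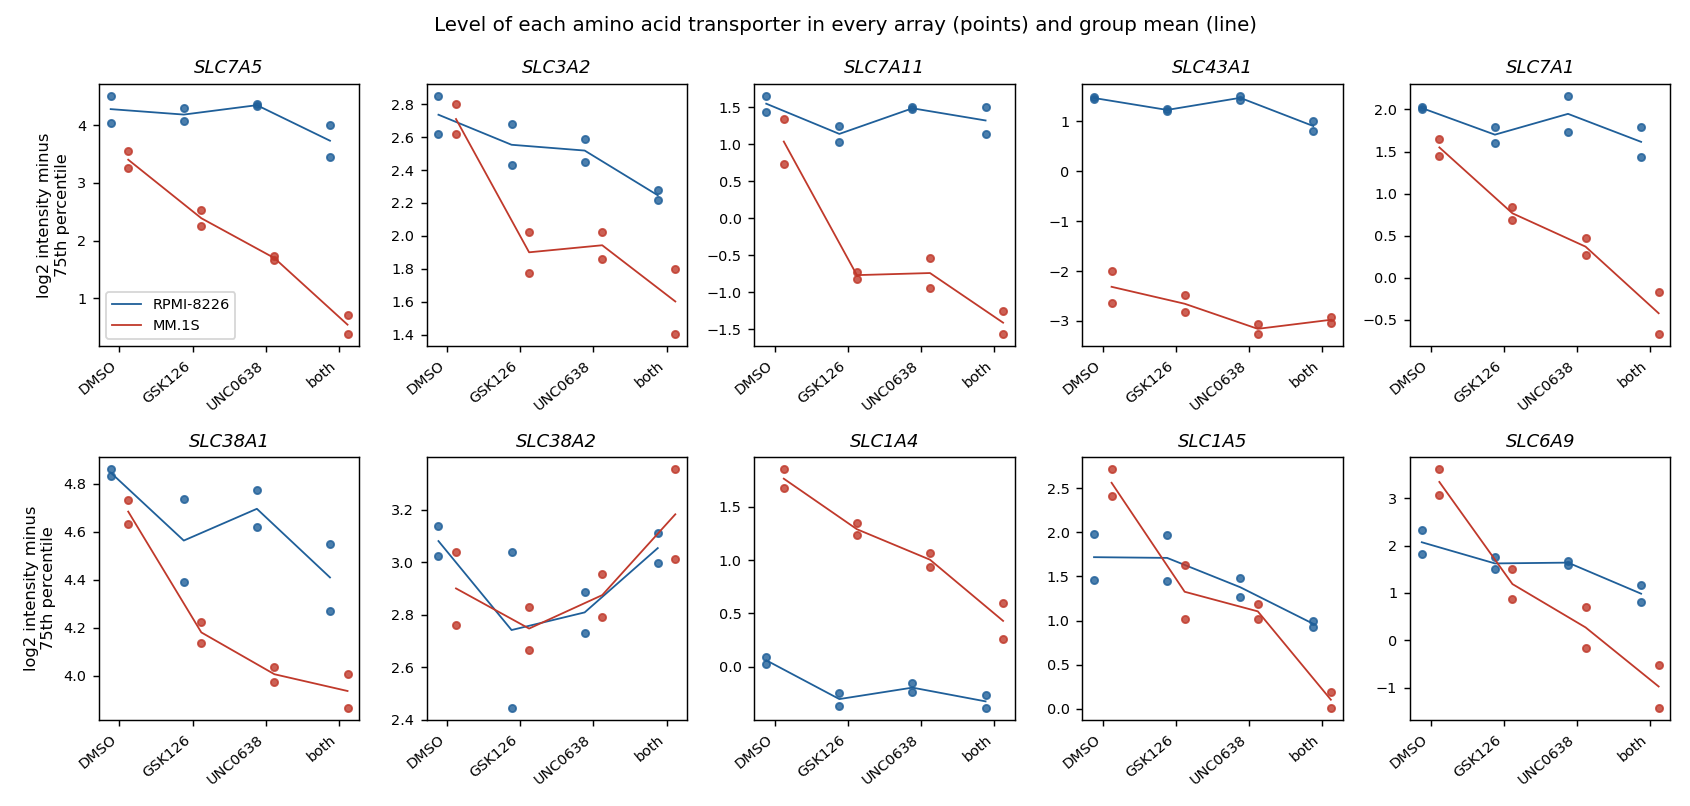
Level of the 10 transporters (log2 intensity minus the 75th percentile of the array, y axis, a separate scale for each gene) in the 4 treatment groups (x axis, "both" is GSK126+UNC0638). Points are single arrays, lines join the group means, blue is RPMI-8226 and red is MM.1S. SLC6A9 stood at 3.08 and 3.61 in the MM.1S DMSO arrays and at -0.52 and -1.43 with both inhibitors, while SLC38A2 stayed between 2.67 and 3.35 over all MM.1S arrays.

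Among the symporters, SLC6A9 (GLYT1), which brings glycine into cells with sodium and chloride, showed the largest difference. Its brighter probe (GRCh37 chr1:44462162-44462221) read 3.08 and 3.61 in the MM.1S DMSO arrays, 0.88 and 1.5 with GSK126, 0.71 and -0.16 with UNC0638, and -0.52 and -1.43 with both. The 4 groups did not overlap and stood in that order, DMSO highest. With both inhibitors the log2 fold change was -4.32 ± 0.44 (SE), 20.0-fold below DMSO. The second probe (GRCh37 chr1:44466499-44466646, 60 bases that span 148 bases of the genome) was well above background on both DMSO arrays, at -2.72 and -2.37, and on neither combination array, at -5.09 and -5.92. SLC6A9 was therefore at least 4.91-fold lower by this probe, where the DMSO mean was set against the combination arrays with the probe raised, where needed, to the dimmest signal well above background on that array.

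In RPMI-8226, the brighter SLC6A9 probe read 2.33 and 1.82 with DMSO, 1.5 and 1.75 with GSK126, 1.69 and 1.60 with UNC0638, and 0.80 and 1.17 with both. The 3 treated groups lay below DMSO, and those of the single agents overlapped each other. The log2 fold change of the combination was -1.09 ± 0.22, 2.12-fold below DMSO. In this line the dim probe was also well above background in both DMSO arrays and in neither combination array, a difference of at least 2.09-fold.

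The exchanger light chain SLC7A5, which imports leucine and other large neutral amino acids (GRCh37 chr16:87863907-87863966), read 3.26 and 3.55 in MM.1S with DMSO, 2.25 and 2.53 with GSK126, 1.73 and 1.67 with UNC0638, and 0.71 and 0.38 with both. No 2 of these groups overlapped, and the combination lay 7.25-fold below DMSO (log2 fold change -2.86 ± 0.17). In RPMI-8226 SLC7A5 read 4.51 and 4.04 with DMSO and 3.45 and 4.01 with both inhibitors. The single agents overlapped DMSO there, and the combination stood 1.46-fold below it (-0.55 ± 0.24), a difference that did not pass the threshold.

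SLC7A11, which imports cystine in exchange for glutamate and so supplies cysteine for glutathione (GRCh37 chr4:139085433-139085492), read 0.73 and 1.34 in MM.1S with DMSO. It read -0.72 and -0.81 with GSK126, -0.54 and -0.94 with UNC0638, and -1.25 and -1.56 with both. The single agents overlapped each other, and the combination was lowest (-2.44 ± 0.24, 5.44-fold). In RPMI-8226 the 8 arrays lay between 1.03 and 1.66, and the combination overlapped DMSO (-0.23 ± 0.18).

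The heavy chain SLC3A2 (GRCh37 chr11:62652689-62652748) read 2.62 and 2.80 in MM.1S with DMSO and 1.80 and 1.40 with both inhibitors. Its difference was smaller than those of both light chains it carries, at -1.11 ± 0.17, 2.16-fold. GSK126, at 2.02 and 1.78, overlapped both UNC0638, at 2.03 and 1.86, and the combination, and all 3 treated groups lay below DMSO. In RPMI-8226 the combination arrays, at 2.22 and 2.28, lay below the DMSO arrays, at 2.85 and 2.62 (-0.49 ± 0.16, not past the threshold).

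The uniporters differed from each other. SLC7A1 (CAT1), the main importer of arginine and lysine (GRCh37 chr13:30084093-30084152), read 1.44 and 1.65 in MM.1S with DMSO, 0.69 and 0.84 with GSK126, 0.47 and 0.27 with UNC0638, and -0.17 and -0.67 with both. The groups stepped down without overlap, to 3.92-fold below DMSO (-1.97 ± 0.18). SLC43A1 (LAT3), which carries leucine, isoleucine, valine and phenylalanine (GRCh37 chr11:57252301-57252360), was dim in MM.1S, at -2.64 and -2.0 with DMSO, -2.83 and -2.48 with GSK126, -3.05 and -3.26 with UNC0638, and -3.03 and -2.92 with both. UNC0638 and the combination lay below both DMSO arrays, and GSK126 overlapped them. The combination difference of -0.66 ± 0.23 missed the threshold, and the 2 DMSO arrays differed by nearly as much. In RPMI-8226 SLC43A1 was bright, at 1.45 and 1.49 with DMSO and 0.81 and 1.01 with both inhibitors, without overlap (-0.56 ± 0.14, past the threshold).

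The sodium-coupled carriers of small neutral amino acids differed from each other in size and direction. SLC1A5 (ASCT2), a glutamine importer (GRCh37 chr19:47278899-47278958), read 2.41 and 2.71 in MM.1S with DMSO, 1.02 and 1.63 with GSK126, 1.19 and 1.02 with UNC0638, and 0.19 and 0.01 with both. The single agents overlapped, and the combination lay 5.50-fold below DMSO (-2.46 ± 0.22). In RPMI-8226 SLC1A5 read 1.98 and 1.46 with DMSO and 0.93 and 1.00 with both inhibitors (-0.76 ± 0.25, not past the threshold).

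SLC1A4 (ASCT1), its relative that carries alanine, serine and cysteine (GRCh37 chr2:65250035-65250094), read 1.67 and 1.85 in MM.1S with DMSO, 1.23 and 1.34 with GSK126, 1.07 and 0.94 with UNC0638, and 0.60 and 0.26 with both. These groups again stepped down without overlap (combination -1.33 ± 0.14, 2.52-fold). In RPMI-8226 SLC1A4 read 0.09 and 0.03 with DMSO and -0.26 and -0.39 with both inhibitors, also without overlap, a difference of -0.39 ± 0.13 that did not pass.

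SLC38A1 (SNAT1), a glutamine and alanine importer, has 3 probes. The brightest (GRCh37 chr12:46582007-46582066) read 4.63 and 4.73 in MM.1S with DMSO, 4.14 and 4.22 with GSK126, 4.04 and 3.98 with UNC0638, and 3.87 and 4.01 with both, so that UNC0638 and the combination overlapped. The combination difference was -0.75 ± 0.09 by this probe, -0.69 ± 0.14 by the second (GRCh37 chr12:46577061-46577120) and -0.52 ± 0.18 by the dimmest (GRCh37 chr12:46663538-46663597). In RPMI-8226 the brightest probe read 4.83 and 4.86 with DMSO and 4.27 and 4.55 with both inhibitors (-0.44 ± 0.18, not past the threshold).

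SLC38A2 (SNAT2), the relative of SLC38A1 best known for its induction when amino acids are withdrawn, was the exception. Its brighter probe (GRCh37 chr12:46752710-46752769) read 2.76 and 3.04 in MM.1S with DMSO, 2.67 and 2.83 with GSK126, 2.79 and 2.96 with UNC0638, and 3.01 and 3.35 with both. Ordered by level, every group overlapped its neighbour, while the combination arrays lay above those of either single agent. The combination difference was 0.28 ± 0.16 by this probe, with a 95% interval from -0.11 to 0.67. The second probe (GRCh37 chr12:46754625-46754684) read 1.98 and 2.39 with DMSO and 2.57 and 2.80 with both inhibitors, without overlap (0.50 ± 0.15, past the threshold). The probes of SLC38A2 thus differ in the call and not in the direction.

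**Figure D2:**
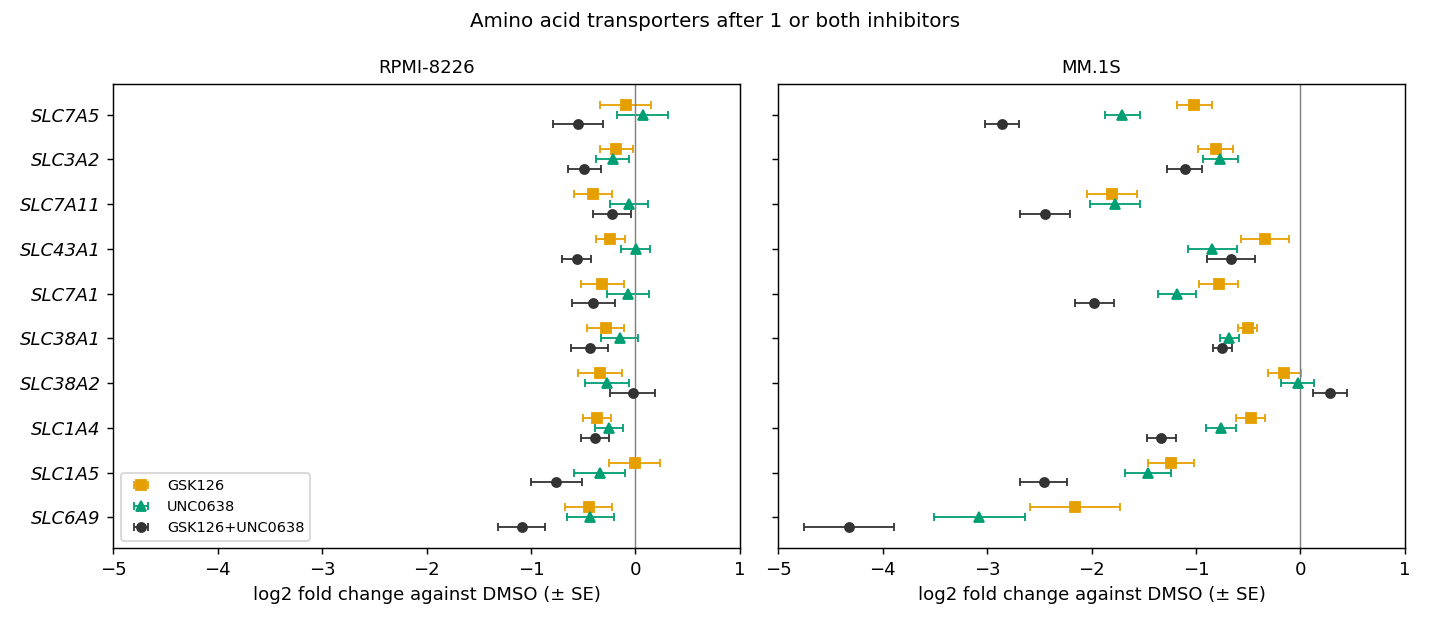
Log2 fold change against DMSO (x axis, ± SE of the limma fit, 2 arrays per group) of the 10 transporters (y axis) for GSK126 (squares), UNC0638 (triangles) and both (circles) in RPMI-8226 (left) and MM.1S (right). In MM.1S the combination spans -4.32 for SLC6A9 to 0.28 for SLC38A2, and in RPMI-8226 -1.09 for SLC6A9 to -0.03 for SLC38A2, whose sign there turned with the scaling.

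With each inhibitor alone, most carriers stood below DMSO in MM.1S. With GSK126, 6 of 10 genes passed the threshold as lower and 0 as higher, where 2.42% of probes were lower and 5.06% higher. SLC6A9 was lower by 2.16 ± 0.44 on the log2 scale, SLC7A11 by 1.80 ± 0.24, SLC1A5 by 1.24 ± 0.22, SLC7A5 by 1.01 ± 0.17, SLC3A2 by 0.81 ± 0.17 and SLC38A1 by 0.50 ± 0.09. SLC7A1 stood at -0.78 ± 0.18, just outside the threshold, SLC1A4 at -0.47 ± 0.14, SLC43A1 at -0.34 ± 0.23 and SLC38A2 at -0.15 ± 0.16. The median of the 10 genes was -0.80 and that of all probes -0.05. Both GSK126 arrays lay below both DMSO arrays for 8 genes (36.5% of probes). With the replicate number as a block, SLC6A9 did not pass. These calls lay close to the threshold. Without any 1 of the DMSO, GSK126 or UNC0638 arrays, 0 or 1 of the genes passed, without either combination array 4 passed, and with no filter on dim probes 0 passed, although no direction changed.

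With UNC0638, 9 of 10 genes passed as lower in MM.1S, where 16.7% of probes were lower and 12.8% higher. Both UNC0638 arrays lay below both DMSO arrays for the same 9 genes (40.6% of probes). SLC6A9 was lower by 3.07 ± 0.44 on the log2 scale, 8.42-fold. SLC7A11 was lower by 1.77 ± 0.24, SLC7A5 by 1.71 ± 0.17, SLC1A5 by 1.46 ± 0.22 and SLC7A1 by 1.18 ± 0.18. SLC43A1, SLC3A2, SLC1A4 and SLC38A1 were lower by 0.84 ± 0.23, 0.77 ± 0.17, 0.76 ± 0.14 and 0.68 ± 0.09. The exception was again SLC38A2, at -0.03 ± 0.16 (95% interval -0.41 to 0.36), whose sign changed with the scaling. Without UNC0638 replicate 2, 5 genes passed, without DMSO replicate 2, 6 did, and without any other single array 7 or 8 did.

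The dim SLC6A9 probe gave the same direction for both single agents in MM.1S. With UNC0638 it was well above background on neither array, a difference of at least 4.73-fold, and with GSK126 on 1 of 2.

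In RPMI-8226, neither single agent moved a carrier past the threshold, where 0.0560% of the 23199 probes tested were lower with GSK126 and 0.0819% with UNC0638, and 0.543% and 0.556% higher. At an unadjusted p under 0.05, 1 of the 10 genes passed with GSK126, SLC1A4, and 0 with UNC0638. How many of all probes passed without adjustment was not counted, so nothing is read from these numbers. The 10 differences ran from -0.45 to -0.01 with GSK126 and from -0.43 to 0.07 with UNC0638. Among the values nearest 0, the sign of SLC1A5 with GSK126 and of SLC43A1 with UNC0638 changed with the scaling. Both treated arrays lay below both DMSO arrays for 6 genes with GSK126 (24.4% of probes) and 5 with UNC0638 (26.7%). By the brightest probe of each gene, no 95% interval reached a 2-fold fall with either agent. The lowest bounds were -0.97 with UNC0638 and -0.98 with GSK126, both of SLC6A9. The dim SLC6A9 probe averaged -3.27 with DMSO, -4.22 with GSK126 and -4.12 with UNC0638, and these bounds do not cover it. It was well above background on 1 of 2 arrays of each single agent. With both inhibitors, 2 of 10 genes passed as lower, SLC6A9 and SLC43A1, where 5.46% of probes did and 7.11% passed as higher. The 10 differences ran from -1.09 to -0.03, with a median of -0.46, against -0.14 for all probes. The value nearest 0, of SLC38A2, turned to 0.12 under quantile normalization and 0.11 with the percentile over detected probes, and the second probe of that gene stood at 0.12 ± 0.17. Only SLC6A9 was past 2-fold. Both combination arrays lay below both DMSO arrays for 8 genes (40.2% of probes). With the replicate number as a block, SLC1A5 also passed. The 2 calls did not hold without single arrays: 0 genes passed without DMSO replicate 1, either UNC0638 array or either combination array, and 1 passed without DMSO replicate 2 or either GSK126 array.

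The combination was then set against each single agent. Against GSK126 in MM.1S, SLC7A5, SLC7A1, SLC1A4, SLC1A5 and SLC6A9 were lower past the threshold (5 of 10, and 21.5% of probes), by 1.84 ± 0.17, 1.19 ± 0.18, 0.86 ± 0.14, 1.22 ± 0.22 and 2.16 ± 0.44 on the log2 scale. Against UNC0638, SLC7A5, SLC7A1, SLC1A4 and SLC1A5 were lower past the threshold (4 of 10, and 7.01% of probes), by 1.15 ± 0.17, 0.79 ± 0.18, 0.57 ± 0.14 and 1.00 ± 0.22. SLC6A9 stood at -1.25 ± 0.44 against UNC0638 and did not pass. With the replicate number as a block, 2 genes passed against UNC0638, SLC7A5 and SLC1A5, while SLC7A1 and SLC1A4 did not, and SLC38A2 passed as higher against GSK126, by 0.44. SLC3A2, SLC7A11 and SLC38A1 passed against neither, at -0.34 ± 0.17, -0.67 ± 0.24 and -0.07 ± 0.09 against UNC0638. Without combination replicate 2, 3 genes passed against GSK126, and against UNC0638 the number without a single array ran from 0, without either UNC0638 array or combination replicate 2, to 3. In RPMI-8226, 0 of 10 genes passed against GSK126 (0.573% of probes were lower) or against UNC0638 (0.672%). At an unadjusted p under 0.05, 2 genes passed against GSK126 and 3 against UNC0638 there. The share of all probes at that unadjusted threshold was not counted, so nothing is read from these numbers.

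The order of the group means in MM.1S was DMSO, GSK126, UNC0638, combination, from highest to lowest, for 6 genes: SLC7A5, SLC7A1, SLC38A1, SLC1A4, SLC1A5 and SLC6A9. For SLC7A5, SLC7A1, SLC1A4 and SLC6A9, no neighbours in that order overlapped. For SLC3A2 and SLC7A11, UNC0638 and GSK126 changed places and overlapped. In RPMI-8226 the combination was the lowest group for 8 genes, all but SLC7A11 and SLC38A2. The share of all probes with these orders was not counted, so the orders describe the carriers and do not set them apart from other genes.

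Set beside the sum of the 2 single-agent log2 fold changes, the combination fell into separate patterns in MM.1S. All 3 values rest on the same DMSO arrays, so the comparison has no test. SLC7A1 stood at -1.97 against a sum of -1.96, SLC1A4 at -1.33 against -1.23, and SLC7A5 at -2.86 against -2.72. For these 3 carriers the combination was close to the sum. SLC7A11 stood at -2.44 against -3.58, SLC6A9 at -4.32 against -5.23, SLC43A1 at -0.66 against -1.18 and SLC3A2 at -1.11 against -1.58. In all, the combination was smaller in size than the sum, or of the other sign, for 7 of 10 genes in MM.1S. In RPMI-8226 the combination exceeded the sum in size for 7 of 10 genes, with SLC7A5 at -0.55 against -0.03 and SLC1A5 at -0.76 against -0.35. Among these 7, SLC38A1, SLC7A1 and SLC3A2 were close to the sum, with differences from it of -0.003, -0.016 and -0.089. The share of all probes on either side of the sum was not counted in either line, so a difference between the lines is not read from these counts.

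**Figure D3:**
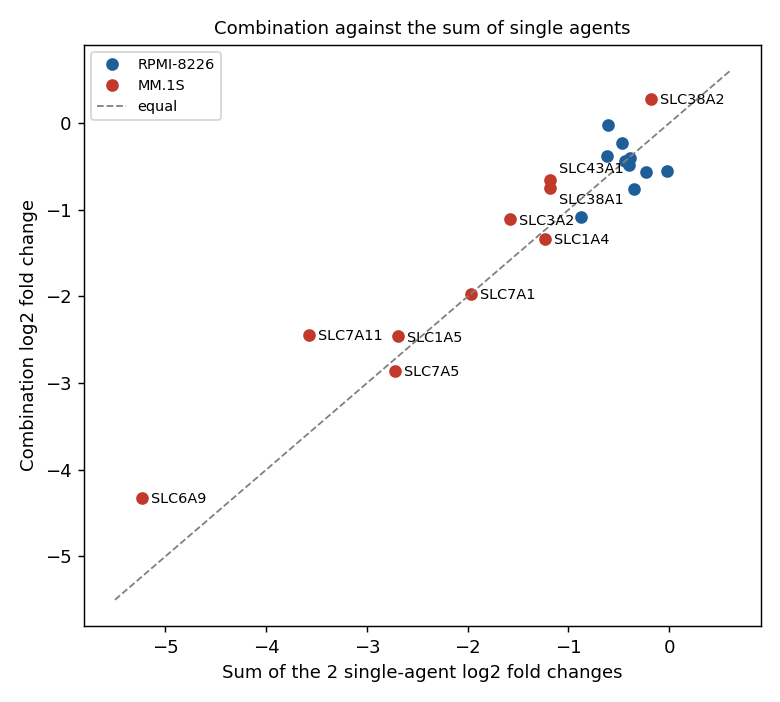
Combination log2 fold change (y axis) against the sum of the GSK126 and UNC0638 log2 fold changes (x axis) for the 10 transporters in RPMI-8226 (blue) and MM.1S (red, named). The dashed line marks equal values. SLC7A1 lies on it at -1.97, and SLC7A11 and SLC6A9 lie 1.13 and 0.91 above it.

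With DMSO, 5 carriers passed the threshold between the lines, and all arrays of a line lay on 1 slide, so line and slide cannot be told apart. SLC43A1 was lower in MM.1S by 3.78 ± 0.20 on the log2 scale, 13.8-fold, and SLC7A5 by 0.88 ± 0.22. SLC1A4 was higher in MM.1S by 1.70 ± 0.13, SLC6A9 by 1.27 ± 0.37 and SLC1A5 by 0.84 ± 0.25. These are 3 genes higher and 2 lower of 10, where 28.8% and 28.9% of the 26931 probes tested were. SLC6A9 and SLC1A5 did not pass without DMSO replicate 2 of either line, and SLC7A5 did not without DMSO replicate 1 of either line. With the mean over both probes SLC6A9 did not pass either. The number that passed was 3 without RPMI-8226 DMSO replicate 2 and 4 without any 1 of the other DMSO arrays, SLC7A11 being gained without MM.1S DMSO replicate 2. SLC3A2 differed by -0.03 ± 0.16, and its sign changed with the scaling.

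The difference between the lines in their response to the combination, fitted as an interaction over all 16 arrays, passed the threshold for 6 of 10 genes, all lower in MM.1S, where 7.0% of probes passed as lower and 6.07% as higher. The response in MM.1S was lower than that in RPMI-8226 by 3.24 ± 0.53 on the log2 scale for SLC6A9, 2.31 ± 0.31 for SLC7A5, 2.22 ± 0.31 for SLC7A11, 1.70 ± 0.35 for SLC1A5, 1.57 ± 0.29 for SLC7A1 and 0.95 ± 0.19 for SLC1A4. By the dim probe of SLC6A9 alone the difference was -0.99 ± 0.99, with neither combination group well above background, and with the mean over both probes SLC6A9 stood at -2.11 and did not pass. SLC3A2 (-0.62 ± 0.23), SLC38A1 (-0.31 ± 0.20), SLC43A1 (-0.10 ± 0.28, a sign that normexp turned) and SLC38A2 (0.31 ± 0.28) did not pass. Without MM.1S DMSO replicate 2 or MM.1S combination replicate 2, SLC1A5 did not pass either.

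Other carriers of the plasma membrane did not share one direction. Of 37 further amino acid transporters of the plasma membrane, all on the array, 16 passed the filter on dim probes in MM.1S. With both inhibitors, 7 were called higher and 6 lower, where 22.2% and 31.5% of all probes were, with a median of 0.10, against -0.12 for all probes. The lower ones included SLC38A5 (SNAT5, glutamine and glycine) at -1.70 ± 0.11, SLC16A10 (TAT1, aromatic amino acids) at -1.29 ± 0.12 and SLC7A2 (CAT2, arginine), which was not well above background with both inhibitors and at least 5.01-fold below DMSO. The higher ones included SLC38A10 at 1.11 ± 0.12, SLC1A7, not well above background with DMSO and at least 1.91-fold higher, and SLC43A2 (LAT4) at 0.90 ± 0.26. With GSK126, 0 of 16 passed in MM.1S, and with UNC0638 5 were higher and 4 lower (12.8% and 16.7% of all probes). In RPMI-8226, 14 passed the filter and 0 were called under any of the 3 treatments.

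Of 16 mitochondrial and lysosomal amino acid carriers, 15 were on the array and 13 passed the filter in MM.1S. There the combination gave 6 lower and 2 higher calls (31.5% and 22.2% of all probes, median -0.34), led by the glutamate carrier SLC25A22 at -0.79 ± 0.10, the ornithine carrier SLC25A15 at -0.78 ± 0.16 and the aspartate-glutamate carrier SLC25A12 at -0.47 ± 0.08. The higher ones were the lysosomal histidine and peptide transporter SLC15A3, at 1.88 ± 0.15, and SLC25A29, not well above background with DMSO and at least 1.98-fold higher. In RPMI-8226, 0 of 12 passed.

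Genes of the amino acid response outside transport, a list of regulators and targets of the path through ATF4, were mostly lower in MM.1S. The list was written with earlier results of these data known. With both inhibitors, 20 of 28 genes that passed the filter were called lower and 1 higher, where 31.5% and 22.2% of all probes were, with a median of -1.03. With GSK126 14 were lower and 1 higher (2.42% and 5.06% of all probes, median -0.74), and with UNC0638 21 were lower and 1 higher (16.7% and 12.8%, median -1.03). By the brightest probe of each gene, the largest differences were those of CHAC1, which breaks down glutathione, at -3.91 ± 0.37, the argininosuccinate synthase ASS1 at -3.31 ± 0.63, well above background on 1 of 2 combination arrays, and PHGDH, the first enzyme of serine synthesis, at -3.16 ± 0.30, with CBS at -3.13 ± 0.52 and PSAT1 at -3.10 ± 0.24 close behind. The exception was VLDLR, a lipoprotein receptor, at 1.54 ± 0.08. In RPMI-8226, 6 of 29 were lower with both inhibitors and 0 higher (5.46% and 7.11% of all probes, median -0.44), among them ASS1 at -2.13 ± 0.16 and CHAC1 at -2.11 ± 0.29, and 0 passed with either single agent.

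NRF2 targets, the antioxidant genes with which SLC7A11 is often grouped, gave 10 lower and 1 higher call of 18 in MM.1S with both inhibitors (31.5% and 22.2% of all probes, median -0.58). The pentose phosphate enzymes TKT, at -1.33 ± 0.08, and TALDO1, at -0.82 ± 0.08, and the growth inhibitor OSGIN1, at -0.90 ± 0.17, were the lowest, and the heme transporter SLC48A1 was the one higher, at 0.54 ± 0.08. In RPMI-8226, 0 of 18 passed. Of 33 symbols for proteins that report amino acid levels to the growth kinase mTORC1, 27 were on the array and passed the filter, and in MM.1S they split into 10 higher and 9 lower (22.2% and 31.5% of all probes) with a median of 0.00. The GTPases RRAGB (1.46 ± 0.17) and RRAGC (0.85 ± 0.12) and the sestrin SESN1 (1.06 ± 0.13) were highest, and the GATOR subunits SEH1L (-1.14 ± 0.09) and NPRL3 (-0.81 ± 0.08) and the mTOR partner MLST8 (-0.95 ± 0.11) were lowest. SESN1 was the 1 of 27 called in RPMI-8226, at 1.77 ± 0.30.

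**Figure D4:**
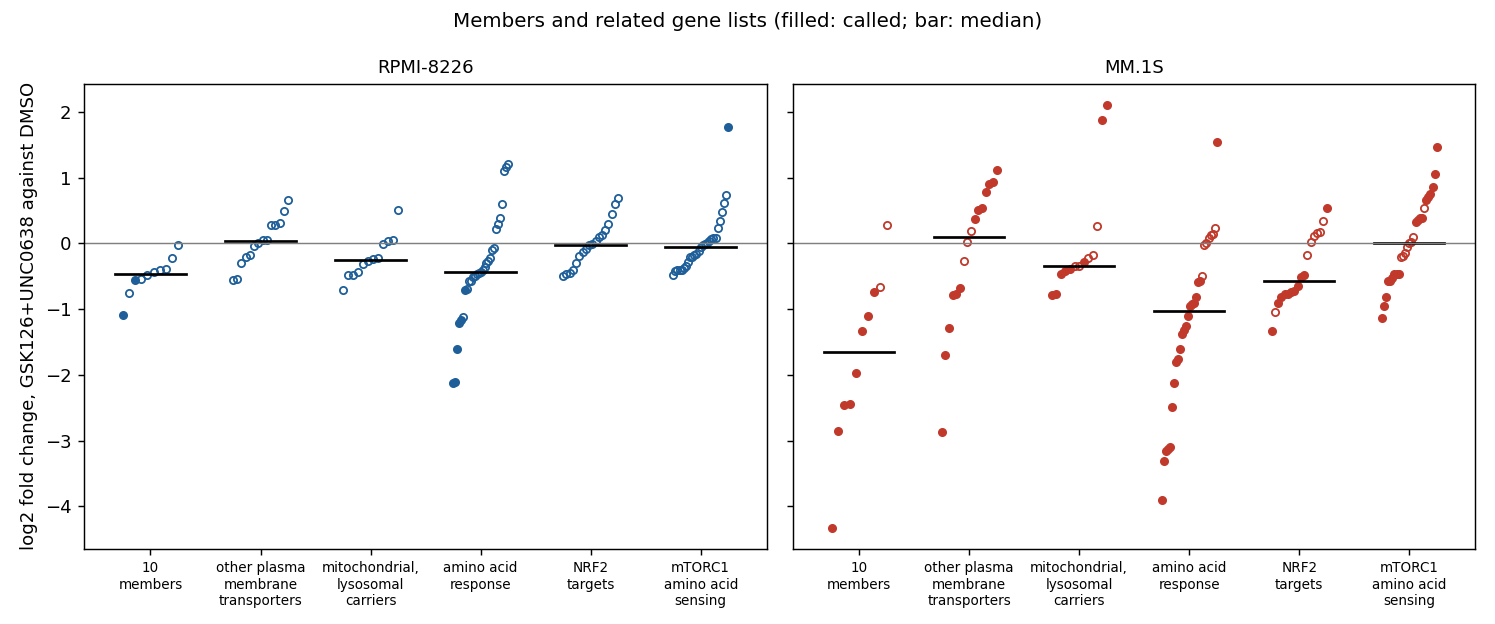
Log2 fold change of GSK126+UNC0638 against DMSO (y axis) for the 10 transporters and 5 related gene lists (x axis) in RPMI-8226 (left) and MM.1S (right). Each point is a gene, filled where it passed the threshold, and the bar is the median, -1.65 for the 10 transporters and -1.03 for the amino acid response in MM.1S.

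Plasma cell markers were also lower with both inhibitors, but their sizes did not follow those of the carriers across the lines. The median of the 10 carriers was -1.65 in MM.1S and -0.46 in RPMI-8226. With single agents in MM.1S, 2 of 7 markers were called lower with GSK126 and 4 of 7 with UNC0638 (2.42% and 16.7% of all probes). With both inhibitors, 7 of 7 markers were called lower in MM.1S (31.5% of all probes, median -0.59) and 3 of 7 in RPMI-8226 (5.46%, median -0.85), and their summed linear level was 322 against 467 with DMSO in MM.1S and 178 against 278 in RPMI-8226. Among 13 markers of T cells, B cells and myeloid, erythroid, epithelial and fibroblast cells, the number well above background on both arrays went from 4 with DMSO to 5 with both inhibitors in MM.1S and from 4 to 8 in RPMI-8226, and their summed level from 4.41 to 3.69 and from 34.0 to 22.2. With both inhibitors, markers of T cells (2 of 2), B cells, myeloid cells and fibroblasts (1 each) were called higher in RPMI-8226, and of T cells, B cells and myeloid cells (1 each) in MM.1S. The epithelial marker EPCAM was called lower in both lines, at -1.31 ± 0.20 in RPMI-8226 and -3.41 ± 0.41 in MM.1S. Their part in the values of the carriers was not tested.

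The genes whose profile over the 8 MM.1S arrays, as level minus the DMSO mean, was nearest to that of SLC6A9 were CHAC1, with a root mean square difference of 0.36, ASS1 (0.60), PSAT1 (0.64, by another probe than the brightest), LOC643201 (0.71) and CBS (0.72), out of 17939 gene symbols. CHAC1 read 2.58 and 3.09 with DMSO and -0.62 and -1.52 with both inhibitors, close to the course of SLC6A9. PSAT1 acts in serine synthesis and CBS in the path from homocysteine to cysteine. CHAC1, ASS1, PSAT1 and CBS are on the list of the amino acid response, which was written with earlier results of these data known. The 5 nearest genes had combination log2 fold changes from -4.74 to -3.13, and the measure favours genes with falls of that size. Nothing is therefore read from the overlap with the list. Over the 8 RPMI-8226 arrays the nearest were SLC5A12 (0.10), TAF5 (0.12), HSP90B1 (0.12), RAB36 (0.12) and GARS (0.14), of 16846 symbols, so that no gene was among the nearest 5 in both lines.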

How the data were processed

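Total RNA of 16 samples was labelled with 1 dye and hybridised to Agilent human arrays. Per the file headers, the authors extracted spot intensities with Agilent Feature Extraction 10.7, and the deposited processed intensity is background-subtracted. Probe positions are those of the files (GRCh37), and promoter windows are of RefSeq (GRCh38.p14). Whether a probe lies in coding or untranslated sequence was not analysed here.

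From the deposited intensity, log2 values were taken, the 75th percentile of each array was subtracted, and each probe was given the mean of its spots, without outlier and control spots. The filter on dim probes required at least 50% of the spots to be well above background in both samples of 1 group or more. Group means were compared with limma 3.58.1 in R 4.3.3 over the 8 arrays of a line, or over all 16 for contrasts between lines, with Benjamini-Hochberg adjustment over 23199 (RPMI-8226), 25102 (MM.1S) or 26931 (both) probes. No spot was saturated, and the scaling intensity ran from 254 to 476. With 2 arrays per group, their number limits the precision. Tested on simulated data for the combination against DMSO, the fit recovered 31 and 72% of 2-fold and 4-fold changes in RPMI-8226 (23198 probes) and 53 and 84% in MM.1S (25097 probes). That simulation changed 100 probes at each size and drew the noise of each array independently. In the data, the combination called 1650 probes higher and 1266 lower in RPMI-8226, and 5565 and 7900 in MM.1S. With so few probes changed, the simulated shares do not give the recovery in these contrasts.

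The 10 genes, the gene lists and the tests were chosen with earlier results of these data known. From each list, up to 3 of the largest rises and falls among genes called for the combination in MM.1S are named, and the 5 gene symbols nearest to SLC6A9 in each line. Alternatives were another background correction (normexp, offset 50), scaling, filter, probe summary, the authors' table of the whole series, the replicate number as a block, 1 fit over 16 arrays and leaving out each array. The series table held the same intensities as the scanner files after rounding for 99.9951% of values.

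The replicate numbers were taken as pairs, since within a line the deposited files of all samples with a number carry 1 common date in their names, of a kind the sources used here do not state. Differences between replicates 1 and 2 correlated between groups of a line at 0.25 to 0.42 over probes in RPMI-8226 (6 of 6 group pairs over 0.1) and at 0.08 to 0.22 in MM.1S (5 of 6). All arrays of a line lay on 1 slide. A result on a marker gene is not reported here.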

Additional observations from a re-analysis of the deposited data

Results flagged for a closer look

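For 6 carriers the response to both inhibitors passed the threshold between the lines in the interaction term of the limma fit, given as a description since the carriers were chosen on these levels: SLC6A9 (-3.24, MM.1S minus RPMI-8226, log2), SLC7A5 (-2.31), SLC7A11 (-2.22), SLC1A5 (-1.70), SLC7A1 (-1.57) and SLC1A4 (-0.95). Each was lower in both MM.1S combination arrays than in both MM.1S DMSO arrays. Each line lies on its own slide, so line and slide cannot be told apart.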

How the results depend on the processing

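The counts of carriers called for the single agents and of the combination against single agents in RPMI-8226 stayed at 0 under every alternative tried. The 8 calls for the combination in MM.1S became 10 under quantile normalization and with the replicate block, and 8 or 9 under the other alternatives and without single arrays. Larger shifts were as follows. The 2 carriers called for the combination in RPMI-8226 became 1 under quantile normalization, the percentile over detected probes or 1 fit over 16 arrays, 0 without a filter and 0 to 1 without single arrays. For GSK126 in MM.1S, 6 became 0 without a filter and 0 to 4 without single arrays. For UNC0638 in MM.1S, 9 became 5 to 8 without single arrays. The combination against GSK126 in MM.1S ranged from 3 to 5 without single arrays. Against UNC0638, 4 became 0 without a filter, 1 with the percentile over detected probes, 2 with 1 fit over 16 arrays and 0 to 3 without single arrays. The DMSO difference between lines ranged from 3 to 5 and the interaction from 5 to 6. Without a filter more probes are adjusted for, and the cause of the other shifts was not tested.

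With the replicate block, 2 carriers were called for the combination against UNC0638 in MM.1S, and the other counts stayed within 1.5 times of the unpaired ones. The 7 calls that changed with the pairing are named beside their results, and it changed no other call.

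The percentile over detected probes shifted the median of all probes by 0.14 in RPMI-8226 and 0.18 in MM.1S for the combination. The share of calls that were higher moved from 56.6 to 74.8% and from 41.3 to 57.8%, from 67.6 to 83.2% for GSK126 in MM.1S (53.5% with normexp) and from 43.3 to 59.9% for UNC0638 in MM.1S.

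Log2 values whose sign turned were all uncalled. In RPMI-8226 with GSK126, SLC1A5 stood at 0.019 under quantile normalization and 0.045 with detected probes, and ranged from -0.27 to 0.25 without single arrays, SLC7A5 from -0.33 to 0.14. With UNC0638 there, SLC43A1 stood at -0.013 under quantile normalization and ranged from -0.042 to 0.049 without single arrays, SLC7A5 from -0.17 to 0.30, SLC7A11 from -0.17 to 0.048 and SLC7A1 from -0.29 to 0.15. With both inhibitors there, SLC38A2 stood at 0.12 under quantile normalization, 0.11 with detected probes and 0.048 as the mean over its probes, and ranged from -0.085 to 0.031 without single arrays. In MM.1S with UNC0638, SLC38A2 stood at 0.087 under quantile normalization, 0.068 with detected probes and 0.072 as the mean over its probes, and ranged from -0.17 to 0.11. Between the lines with DMSO, SLC3A2 stood at 0.044 under quantile normalization, 0.035 with normexp and 0.035 with detected probes, and ranged from -0.14 to 0.091. The interaction of SLC43A1 stood at 0.11 with normexp and ranged from -0.42 to 0.22. The cause was not tested. With 2 arrays a group, the spread between replicates limits what could be called.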
